A study of Mus musculus with 22 samples.

Results

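The effect of deleting Vsir, the gene for the checkpoint receptor VISTA, was compared between mouse MC38 tumor tissue and bone marrow myeloid cells cultured under hypoxia. The quantity described is the difference of both knockout effects, the log2 fold change knockout (KO) against wild type (WT) in the tumor minus the same fold change in hypoxia culture. Its genes were those listed in both raw count tables, 22700 in all, of which 12978 had enough reads in each experiment to be tested. Of these, 1793 had a called difference and 147 turned sign, with a called rise in one experiment and a called fall in the other.

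All mice were labelled C57BL/6N. The tumor groups were 3 WT and 3 VISTA KO samples of MC38 tumor tissue taken on day 7 (MC38 is a mouse colon carcinoma line). The hypoxia groups were 4 WT and 4 VISTA KO samples of bone marrow myeloid cells kept under hypoxia for 24 h, and 4 WT and 4 VISTA KO normoxia cultures of day 4 are cited beside them. These 14 libraries of tumor and hypoxia are part of a series of 22. Neither the kind of VISTA deletion nor the cells of the tumor samples are stated in the labels; the tumor table calls its samples MDSC (myeloid-derived suppressor cells), and the labels call them tumor tissue. GM-CSF and IL-6 are named for the normoxia cultures only, and only those are described as independent biological replicates, so that p-values for tumor and hypoxia measure the spread between these samples, which may be technical. The hypoxia KO columns carry another name than the labels and were read as KO because they were the remaining columns of that table.

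VISTA is an inhibitory receptor of the B7 family that is abundant on myeloid cells. Myeloid-derived suppressor cells restrain T cells by using up arginine through arginase, by making nitric oxide and reactive oxygen, and by showing checkpoint ligands. When oxygen is short, the transcription factor HIF-1α escapes destruction through VHL and switches on glucose uptake and glycolysis. IL-6 acts on these cells through JAK kinases and STAT3, and SOCS3 shuts this signal down, while ornithine decarboxylase feeds ornithine into polyamines.

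Vsir itself checked the labels in every library. Its level in CPM (counts scaled to library size) was 439.7, 487 and 493 in tumor WT and 118, 116 and 130.0 in tumor KO, and 541, 611, 523 and 538 in hypoxia WT against 161, 168, 162 and 116 in hypoxia KO. The libraries read as KO lay below the WT libraries in both experiments and no group was at 0. The knockout effect was -1.96 ± 0.12 in the tumor and -1.86 ± 0.10 in hypoxia, where ± after a log2 fold change is its standard error (SE). Their difference was -0.10, with a 95% interval of -0.41 to 0.21, and was not called (edgeR, adjusted p = 0.7).

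Library totals ranged from 27452024 to 31716200 counts in tumor WT, from 19119985 to 23089943 in tumor KO and from 30839108 to 31385825 in hypoxia. The samples of the experiments were of different make. The macrophage receptor gene Csf1r had 2420 to 2950 CPM of all counts in the tumor and 209 to 460 in hypoxia, whereas the neutrophil gene S100a8 had 1.51 to 4.03 in the tumor and 2710 to 4680 in hypoxia, and Ly6g had at most 0.158 in the tumor. The pan-leukocyte gene Ptprc had 947 to 1120 CPM in the tumor samples, and the carcinoma keratin Krt8 at most 5.45, in tumor KO replicate 2. Fibroblast markers summed to 441 to 701 CPM in the tumor and to 116 to 171 in hypoxia. Transcripts of the mitochondrial genome summed to 864 to 1961 CPM in the tumor and to 36520 to 49200 in hypoxia. In such bulk samples, fewer cells of a type and less RNA per cell cannot be told apart.

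A gene was called when its edgeR adjusted p was under 0.05 over all genes tested. In the tumor, 461 genes were higher in KO (3.55% of those tested) and 524 lower (4.04%); in hypoxia, 2220 were higher (17.1%) and 2278 lower (17.6%). The difference was called higher in the tumor for 720 genes (5.55%) and lower for 1073 (8.27%). With library size alone as scaling, the split turned to 964 higher and 863 lower, or 52.8% higher against 40.2%. Of the 1793 genes, 1202 had an own effect called in hypoxia alone, 258 in the tumor alone, 141 in neither experiment, and 25 and 20 in both with the same sign, larger in the tumor and in hypoxia. The 492 genes called in both experiments were 49.9% of the tumor list and 10.9% of the hypoxia list, and 345 of them moved in the same direction. Across the 12978 genes, which are not independent replicates, both effects correlated with a Pearson r of 0.276 and a Spearman rho of 0.192, and 57.1% had the same sign. The tumor count of 985 fell to 553 without tumor KO replicate 1, to 648 without tumor KO replicate 2 and to 556 without tumor WT replicate 2.

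**Figure D1:**
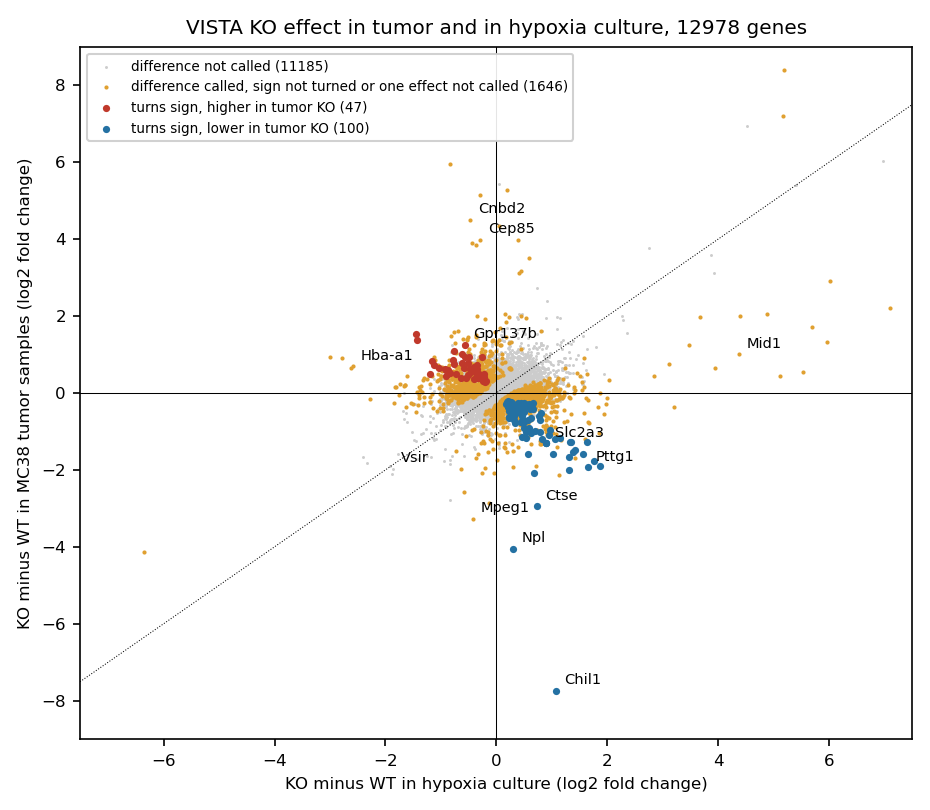
Knockout effect (log2 fold change, KO against WT) of 12978 genes in hypoxia culture (horizontal) and in MC38 tumor samples (vertical); each point is a gene and the dotted line marks equal effects. Red points are the 47 genes higher in tumor KO and lower in hypoxia KO, blue points the 100 with the opposite signs, and Vsir lies on the line of equal effects while Chil1 lies farthest below it among the blue points.

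Genes that turned sign were a small share of all. Of the genes tested, 47 (0.362%) were higher in tumor KO and lower in hypoxia KO, and 100 (0.771%) were lower in tumor KO and higher in hypoxia KO. The total of 147 fell to 84 without tumor KO replicate 1, to 88 without tumor KO replicate 2 and to 79 without tumor WT replicate 2. The 47 became 30 without hypoxia KO replicate 2, 25 and 29 without tumor KO replicates 1 and 2, and 29 and 25 without tumor WT replicates 1 and 2; the 100 became 59 without tumor KO replicate 1 or 2 and 54 without tumor WT replicate 2. When each experiment was fitted alone, a choice made after the data were seen, 112 genes turned sign (57 and 55), and 91 of them were among the 147. The genes named next were the largest in each direction among genes with at least 3 on the log2 CPM scale in each experiment and with no overlap of genotypes in either.

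Among genes higher in tumor KO, Gpr137b, a membrane protein of lysosomes (chromosome 13, 13357620 to 13394014), came first. Its level was 33.1, 33.5 and 35.7 CPM in tumor WT and 79.3, 80 and 84.9 in tumor KO, and 56, 69.5, 57 and 56.5 in hypoxia WT against 41.1, 35, 51.6 and 34 in hypoxia KO. All KO tumors lay above all WT tumors by more than the spread within either group, and all KO cultures lay below the WT cultures. The effect was 1.26 ± 0.13 in the tumor and -0.56 ± 0.11 in hypoxia, a difference of 1.82 with an interval of 1.46 to 2.17 (edgeR, adjusted p = 2.1e-06). Ralgds, an exchange factor that links Ras to Ral (chromosome 2, 28513125 to 28553081), had 129.8, 147 and 148 CPM in tumor WT and 183, 188 and 223 in tumor KO. In hypoxia it had 83.3, 82.5, 86.6 and 100.0 in WT and 41.6, 36.4, 44.5 and 31.8 in KO. The hypoxia fall (-1.19 ± 0.10) was larger than the tumor rise (0.48 ± 0.11), and the difference was 1.67 (adjusted p = 1.7e-06).

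The other genes of that direction had tumor rises smaller than their hypoxia falls, except Saa3, whose rise was the larger. Cd302, a C-type lectin receptor, changed by 0.62 in the tumor and -0.93 in hypoxia. Tigar, a phosphatase that slows glycolysis, changed by 0.59 and -0.91, and the peptidase gene Thop1 by 0.61 and -0.87. Hivep3, a zinc finger transcription factor, changed by 0.51 and -0.84. P2ry14, a receptor for UDP-sugars, changed by 0.44 and -0.90, and the acute-phase gene Saa3 by 0.77 and -0.51. Their differences lay between 1.29 and 1.55 and stayed called without any single library. The tumor rises were less firm: that of Ralgds was not called without tumor KO replicate 3 or WT replicate 1, that of Cd302 without those or WT replicate 2, and that of Hivep3 without tumor KO replicate 1 or 3 or WT replicate 1 or 2. The rise of P2ry14 was not called without tumor KO replicate 1 or 2 or WT replicate 1 or 3, that of Thop1 without hypoxia WT replicate 4 or any tumor library except WT replicate 2, and that of Tigar without any of the tumor libraries, hypoxia KO replicate 1, 2 or 3, or hypoxia WT replicate 1 or 4. With the tumor fitted alone, the adjusted p was 0.050 for Cd302 and 0.072 for Hivep3.

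Chil1, which encodes a secreted chitinase-like lectin (chromosome 1, 134182176 to 134190181), had the largest difference of either direction among the genes that turned sign. Tumor WT samples had 418, 452 and 530.0 CPM and tumor KO samples 2.38, 1.11 and 3.09. Hypoxia WT cultures had 197, 178, 157 and 191 CPM and hypoxia KO cultures 402, 401, 364 and 352. The KO tumors were thus nearly without Chil1 transcripts, while every KO culture lay above every WT culture. The effects were -7.74 ± 0.21 in the tumor and 1.07 ± 0.12 in hypoxia, a difference of -8.81 with an interval of -9.32 to -8.30 (edgeR, adjusted p = 3.5e-13).

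Npl, the lyase that breaks down sialic acid (chromosome 1, 153503015 to 153550045), went from 38.1, 44.4 and 44.9 CPM in tumor WT to 3.06, 2.71 and 1.89 in tumor KO. Its hypoxia levels were low, at 8.48, 8.8, 8.65 and 9.56 in WT and 11.9, 10.7, 9.78 and 11.4 in KO, and did not overlap. The difference was -4.34 ± 0.18, almost all of it from the tumor fall of -4.04; the hypoxia rise of 0.30 (adjusted p = 0.038) was not called without hypoxia KO replicate 1, 2 or 4 or WT replicate 1, 2 or 3. Ctse, the endosomal aspartic protease cathepsin E (chromosome 1, 131638306 to 131675505), had 137, 152 and 143 CPM in tumor WT and 19.7, 16.9 and 19.3 in tumor KO. In hypoxia it had 23, 25, 20.2 and 24.5 in WT and 42.4, 35, 43 and 34.4 in KO. Both contrasts were free of overlap, and the effects were -2.95 ± 0.11 and 0.74 ± 0.09 (difference -3.68, adjusted p = 2.1e-11).

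Pttg1, which encodes securin, the inhibitor of the cohesin protease separase (chromosome 11, 43420250 to 43426251), moved by similar amounts in opposite directions. It had 46.8, 50.3 and 41.3 CPM in tumor WT and 13.1, 11.7 and 11.3 in tumor KO, and 11.6, 11.5, 10.1 and 11.3 in hypoxia WT against 28.4, 33.2, 36.1 and 42 in hypoxia KO. The tumor KO level was that of the hypoxia WT cultures, and the highest hypoxia KO library reached the lowest WT tumor. The effects were -1.94 ± 0.13 and 1.65 ± 0.11, and the difference was -3.59 (adjusted p = 2.7e-10). Of the 30 replication and mitosis genes listed beside it, 1 had a called difference, Tk1 (0.71), which was not called without tumor KO replicate 1 or tumor WT replicate 2; without hypoxia WT replicate 2, 2 were called.

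Slc2a3, the high-affinity glucose transporter GLUT3 (chromosome 6, 122727809 to 122801640), had 13.1, 13.3 and 11.8 CPM in tumor WT and 6.02, 4.4 and 4.92 in tumor KO. In hypoxia it had 201, 259, 188 and 252 in WT and 461, 424, 393 and 404 in KO. It was therefore scarce in the tumor samples and lower still in KO, and abundant in the cultures and higher in KO (effects -1.31 ± 0.15 and 0.90 ± 0.10, difference -2.21, adjusted p = 3.3e-07). The transcription factor gene Ets1 changed by -1.31 in the tumor and 0.89 in hypoxia, and Mapk7, the gene for the kinase ERK5, by -1.31 and 0.89. Itga6, which encodes a laminin-binding integrin chain, changed by -1.18 and 0.54. These calls, in both own effects, stayed without any single library.

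**Figure D2:**
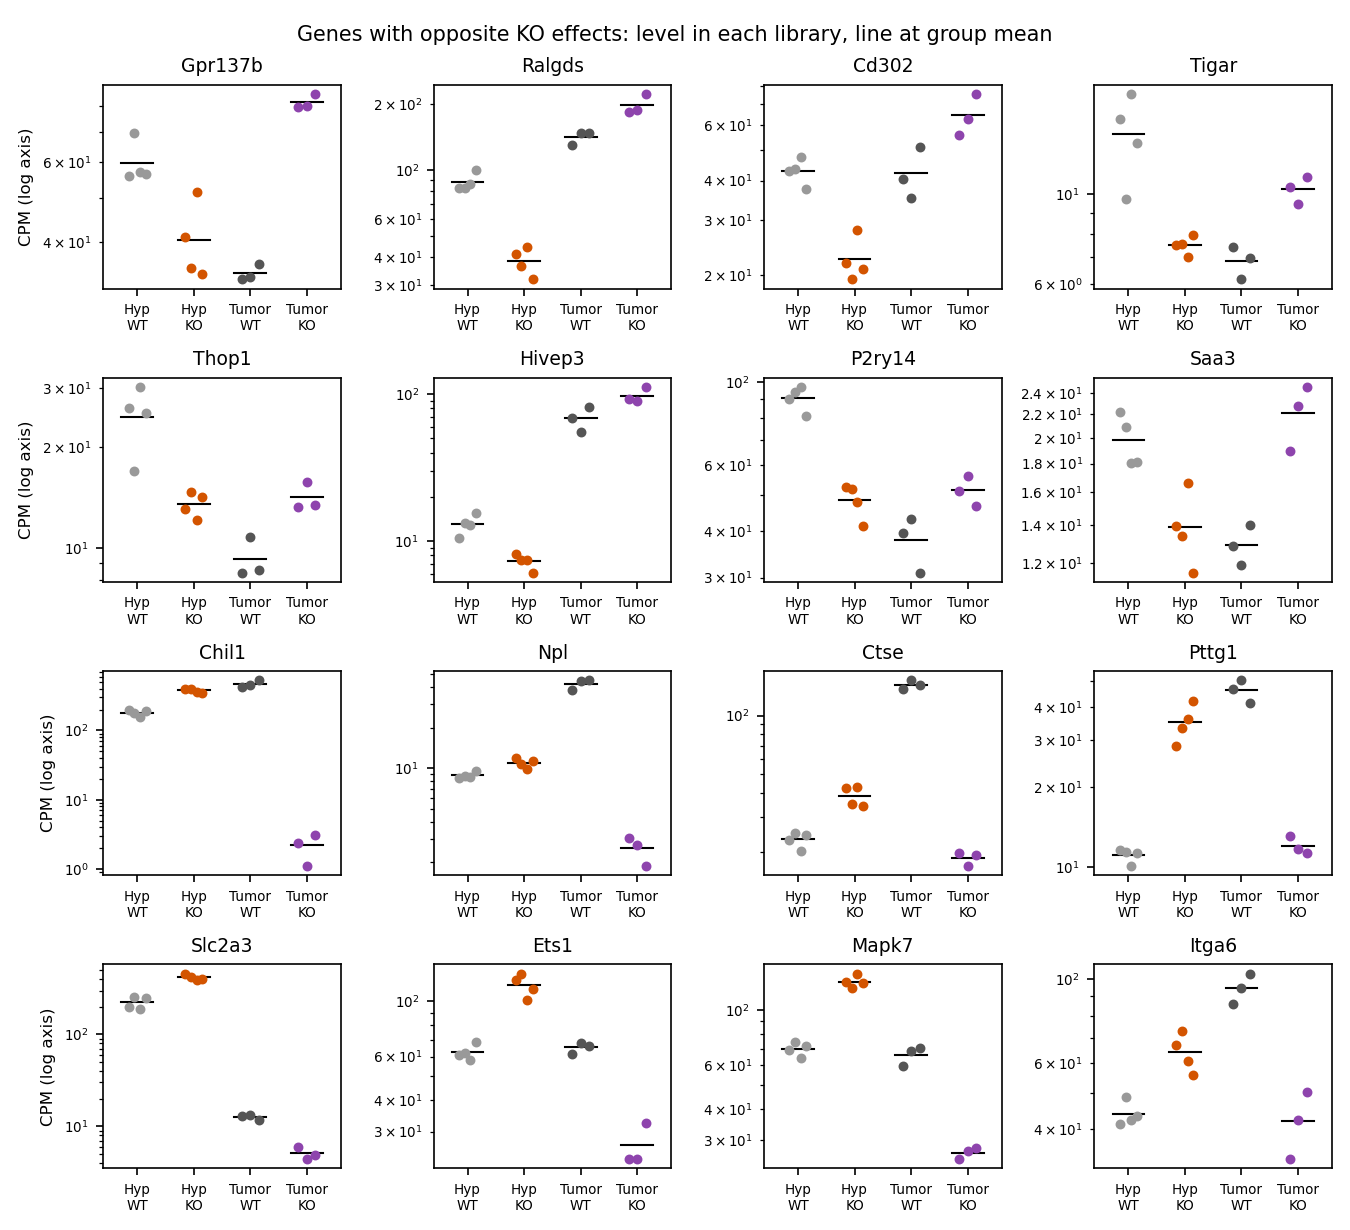
Level in CPM (log axis, its own range in each panel) of the 16 genes named first among those that turned sign. Each library of hypoxia WT, hypoxia KO, tumor WT and tumor KO is shown. Points are libraries and lines group means. In the upper panels tumor KO lies above tumor WT and hypoxia KO below hypoxia WT, from Gpr137b to Saa3; in the lower panels, from Chil1 to Itga6, both orders are reversed.

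The normoxia cultures, which enter neither effect, showed on which side the genes that turned sign fell without hypoxia. Of the 47 genes higher in tumor KO, 46 were tested in normoxia; 38 had the sign of hypoxia, 17 were called with it and 1 was called with the sign of the tumor, with a median effect of -0.33, beside -0.50 under hypoxia and 0.59 in the tumor. Of the 100 lower in tumor KO, 93 were tested; 86 had the sign of hypoxia, 33 were called with it and 1 was called with the sign of the tumor, with medians of 0.29, 0.45 and -0.50. Over all 12461 genes tested in both settings, 6.46% were called higher and 4.49% lower in normoxia KO. The share of all genes with the same sign in both cultures was not counted. Whether the sign counts are particular to the genes that turned sign was therefore not tested. Pttg1 (1.5), Slc2a3 (0.98) and Chil1 (0.71) were higher in normoxia KO and Ralgds lower (-0.73). Npl went the way of the tumor (-0.53, adjusted p = 0.028), and Gpr137b and Itga6 had effects of 0.02 and -0.05 that were not called. The 50 genes called with the sign of hypoxia became 24 without normoxia KO replicate 3, 16 without WT replicate 1, 24 without WT replicate 2 and 27 without WT replicate 4. The 2 called with the sign of the tumor became 1 without KO replicate 1 or 4 and 0 without KO replicate 3 or WT replicate 1, 2 or 4.

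**Figure D3:**
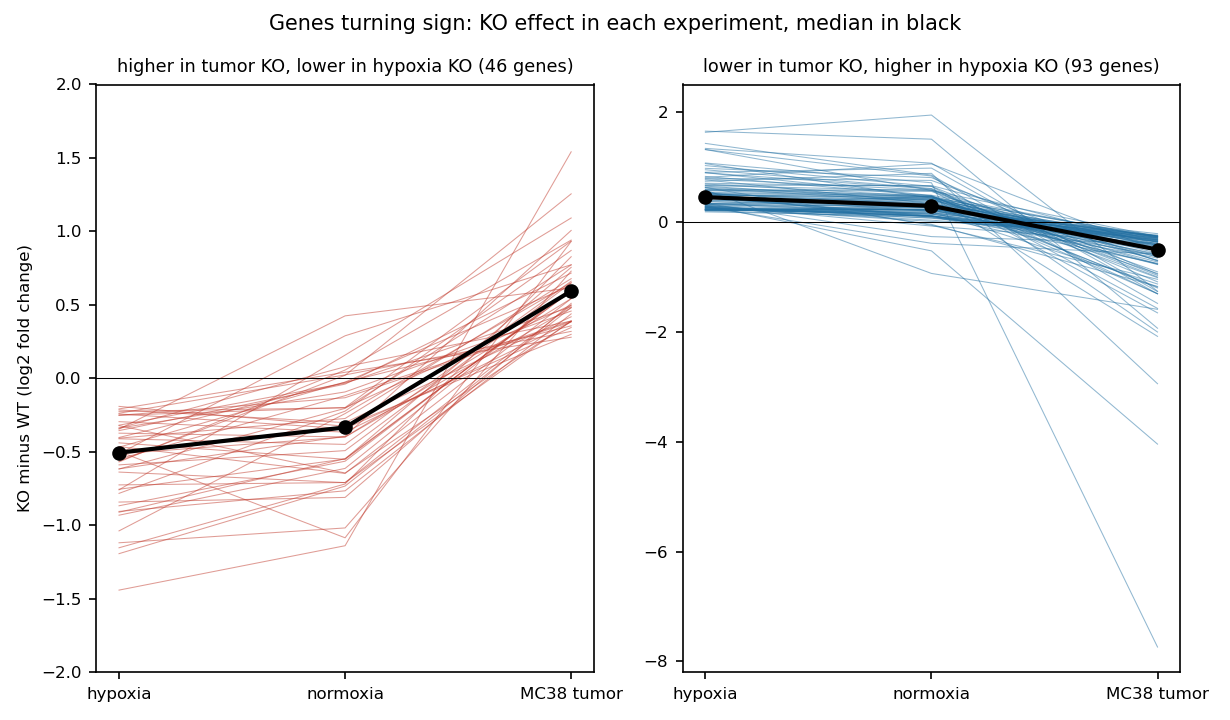
Knockout effect (log2 fold change) of the genes that turned sign and were tested in normoxia, 46 on the left and 93 on the right, in hypoxia culture, normoxia culture and MC38 tumor; thin lines are genes, the black line their median, and the vertical ranges of the panels differ. The normoxia median lies near that of hypoxia and on the other side of 0 from that of the tumor in both panels.

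Genes with an effect called in the tumor alone were led by Cnbd2, which encodes a protein with a cyclic nucleotide-binding domain. It had 4.84, 4.86 and 4.98 CPM in tumor WT and 117, 112 and 106 in tumor KO, and 137, 102, 90 and 127 in hypoxia WT against 66.9, 51.9, 107 and 103 in hypoxia KO. The tumor WT samples stood apart from all other libraries, and the hypoxia groups overlapped (difference 4.98 ± 0.33, edgeR, adjusted p = 2.1e-07); the hypoxia effect of -0.47 was called only without hypoxia KO replicate 3 or 4. Cep85, a centrosome protein gene, had 25.3, 29.1 and 28.8 CPM in tumor WT and 506, 458 and 360.0 in tumor KO, with 273 to 388 in hypoxia WT and 216 to 324 in hypoxia KO (difference 4.29). Glul, the gene for glutamine synthetase, rose from 14.2, 18 and 16.8 CPM in tumor WT to 53.3, 51.2 and 52.6 in tumor KO and had 81.7 to 96.3 and 82.6 to 98.9 in the overlapping hypoxia groups (difference 1.61). The neighbouring membrane protein genes Tmem176a and Tmem176b rose by 1.39 and 1.31 in the tumor, and the kinase gene Stk25 by 1.32.

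Falls called in the tumor alone included Nt5e, the ectoenzyme CD73 that makes adenosine, a suppressor of T cells. It had 91.1, 84.7 and 89.2 CPM in tumor WT and 37.6, 39.7 and 51.9 in tumor KO, while the hypoxia groups overlapped at 79.2 to 91 and 69.3 to 103 (difference -1.03 ± 0.18, edgeR, adjusted p = 0.0011). Adam8, a membrane metalloprotease gene, fell from 1105, 1240 and 1225 CPM to 631, 651 and 651 in the tumor and changed by 0.19 in hypoxia, where it was called only without hypoxia KO replicate 4. Dnaaf5, a dynein assembly factor gene, changed by -1.95 in the tumor and -0.20 in hypoxia. Galnt10, an enzyme that starts O-linked glycosylation, changed by -1.10 and 0.15, and Slc16a6, a monocarboxylate transporter family gene, by -0.64 and 0.24, with the latter called only without hypoxia KO or WT replicate 3. Tnfrsf26, a receptor gene of the TNF family, changed by -1.09 and 0.05; with the tumor fitted alone its adjusted p was 0.059. Mpeg1, which encodes the pore-forming protein perforin-2 of macrophages, fell in both experiments; it lay outside the rule for named genes and was chosen after its values were seen. It had 1629, 1668 and 1616 CPM in tumor WT and 163, 157 and 189.7 in tumor KO, against 547 to 786 and 374 to 620.2 in hypoxia, where the groups overlapped. Its falls were -3.27 in the tumor and -0.42 in hypoxia (adjusted p = 0.02), and the difference was -2.84 ± 0.20.

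Genes with an effect called in hypoxia alone that were lower in hypoxia KO included Mmp14, a membrane-bound collagenase. It had 31.7, 46.8, 30.3 and 40.1 CPM in hypoxia WT and 13.8, 13.6, 19.8 and 9.4 in hypoxia KO. The tumor samples had more of it, and WT at 424, 488 and 476 overlapped with KO at 476, 530.0 and 543 (difference 1.56 ± 0.26, edgeR, adjusted p = 0.0013). Smpdl3b, a membrane phosphodiesterase gene, had 22.3, 16.4, 27 and 27.4 CPM in hypoxia WT and 6.6, 7.39, 8.47 and 7.85 in KO, with 77.3 to 90 and 102 to 134 in the tumor. Its tumor groups did not overlap, but the value of 0.43 was not called in the fit of 14 libraries (difference 2.05). It was called without hypoxia WT replicate 2, and with the tumor fitted alone at 0.44 (edgeR, adjusted p = 0.032). The secreted protein gene Serpinf1 changed by -1.01 in hypoxia and 0.36 in the tumor, and the membrane glycoprotein gene Pmp22 by -1.85 and -0.25. Cdh1, the gene for E-cadherin, changed by -0.84 and 0.52, and its difference of 1.36 was not called without tumor KO replicate 1 or 2.

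Of those higher in hypoxia KO, Rnf144a, a ubiquitin ligase gene, had 31.4, 26.7, 28.2 and 32.8 CPM in hypoxia WT and 89.4, 86.2, 88.5 and 84.9 in hypoxia KO. The tumor groups overlapped at 6.73 to 8.47 and 6.68 to 9.58 (difference -1.48 ± 0.16, edgeR, adjusted p = 1.1e-05). Fcrlb, an Fc receptor-like gene, changed by 2.0 in hypoxia and -0.13 in the tumor, and St3gal5, which makes the ganglioside GM3, by 1.34 and -0.14. The Rap inhibitor gene Rap1gap2 changed by 1.13 and -0.15. Pf4, a chemokine gene of platelets and megakaryocytes, had 32.5, 27.9, 34.8 and 25.4 CPM in hypoxia WT and 58, 69.3, 40.1 and 56.8 in KO, and 70.3, 67.4 and 139 in tumor WT and 31.1, 35.7 and 71.1 in tumor KO, where the groups overlapped (difference -1.90). Its tumor fall was called only without tumor KO replicate 3, and its hypoxia rise was not called without hypoxia KO replicate 1, 2 or 4 or WT replicate 1, 2 or 3.

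Of the 345 genes called in both experiments with the same sign, 8 are named. Cd33, a sialic acid-binding inhibitory receptor of myeloid cells, had 36.7, 37.5 and 41 CPM in tumor WT and 63.3, 62.9 and 71 in tumor KO, and 659, 819, 611 and 743 in hypoxia WT against 1061, 1049, 1232 and 1103 in hypoxia KO. It rose in both, by 0.77 and 0.65, and the difference of 0.12 had an interval of -0.16 to 0.41 (edgeR, adjusted p = 0.58). Falls were shared by the osteopontin gene Spp1 (-1.05 in the tumor, -1.32 in hypoxia), the macrophage elastase gene Mmp12 (-1.05 and -1.10), the tetraspanin gene Cd9 (-0.86 and -0.92, difference interval -0.28 to 0.38) and the receptor gene Cd244a (-1.59 and -1.77). None of these differences was called. Fcgr2b, the inhibitory IgG receptor, rose by 0.66 in the tumor and 1.23 in hypoxia; its difference of -0.57 (adjusted p = 0.04) was not called on leaving out any library except hypoxia KO replicate 4 or hypoxia WT replicate 2. F5, the gene for coagulation factor V, rose by 0.72 and 1.25; the tumor rise was not called without tumor KO replicate 1 or 2 or WT replicate 2, and the difference of -0.53 was called without tumor KO replicate 1 or tumor WT replicate 2. Mid1 rose by 1.0 and 4.37, but part of it has a near-identical copy (Mid1-ps1) that can share its reads, so its values are uncertain; its tumor rise was not called without tumor KO replicate 1 or 2 or WT replicate 2 or 3.

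**Figure D4:**
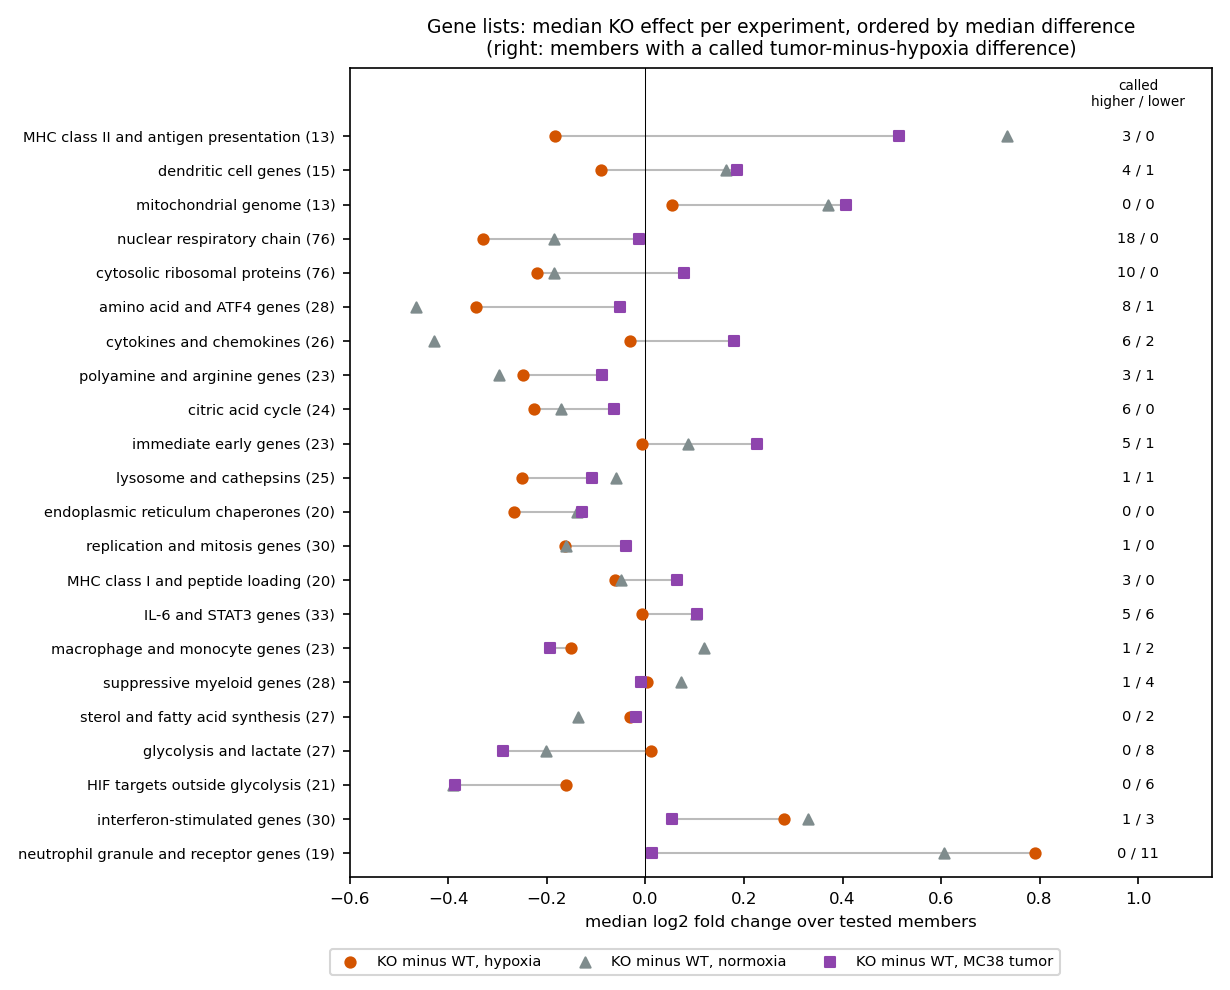
Median knockout effect (log2 fold change) of each gene list in hypoxia, normoxia and MC38 tumor, with the number of tested members in parentheses and, at the right, members with a difference called higher / lower; lists are ordered by their median difference. Antigen presentation, respiratory chain and ribosomal lists have tumor medians above hypoxia medians, and glycolysis, HIF target and neutrophil lists the opposite.

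Glycolysis and lactate genes had lower effects in the tumor than in hypoxia where they differed at all. Of 27 tested, 8 had a difference called lower and 0 higher, with a median of -0.18 beside 0.01 over all genes tested and 4 members above 0. Over all genes, 8.27% were called lower. A test against a fold of 1.2 left 4 of the 8. In the tumor 14 fell and 1 rose, and in hypoxia 8 fell and 7 rose. Beside Slc2a3, the genes were Hk3, the hexokinase of myeloid cells, with 943, 1066 and 920.0 CPM in tumor WT, 860.5, 793 and 742 in tumor KO, 234, 214, 230.1 and 236 in hypoxia WT and 336, 358, 297 and 322 in hypoxia KO. Hk3 turned sign (-0.29 and 0.52, difference -0.81 ± 0.11, edgeR, adjusted p = 0.00015), although its tumor fall was not called without tumor KO replicate 2 or 3, tumor WT replicate 1 or 2, hypoxia KO replicate 1 or hypoxia WT replicate 1, 3 or 4. Gpi1, glucose phosphate isomerase, fell in the tumor alone from 1293, 1435 and 1316 to 802, 846 and 894 CPM and stayed at 2622 to 2833 and 2734 to 2965 in the overlapping hypoxia groups (difference -0.72). The other genes were Pgam2 (-0.92), Pfkfb3 (-0.55), Pfkfb4 (-0.54), Hk1 (-0.46) and Pgk1 (-0.31). Slc2a1, the main glucose transporter of the list, fell in both experiments (-0.41 and -0.52), with a difference of 0.11 and an interval of -0.08 to 0.30. Gapdh fell in both (-0.74 and -0.44), with a difference of -0.29 that was not called (adjusted p = 0.073) but was called by DESeq2 and by limma. Eno2, an enolase named after its values were seen, rose in both, from 1.11, 0.999 and 0.743 to 39.6, 40.9 and 41.1 CPM in the tumor and from 0.163, 0.352, 0.223 and 0.604 to 18.4, 10.1, 18.4 and 10.6 in hypoxia, with no difference beyond its interval of -0.35 to 0.35.

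HIF targets outside glycolysis went the same way, with 6 differences called lower and 0 higher of 21 tested and a median of -0.22. Over all genes, 8.27% were called lower, and a test against a fold of 1.2 left 3 of the 6. In the tumor 11 fell and 0 rose. Mxi1, an antagonist of MYC, had 163, 188 and 164 CPM in tumor WT and 110.0, 117 and 116 in tumor KO, and 143, 159.9, 153 and 165 in hypoxia WT against 194, 193, 206 and 180.1 in hypoxia KO, with no overlap in either (difference -0.90 ± 0.10, edgeR, adjusted p = 2.3e-05). Ddit4, an inhibitor of mTORC1, also turned sign (-0.59 and 0.27), but its hypoxia groups overlapped and the hypoxia rise was not called without hypoxia KO replicate 1 or hypoxia WT replicate 1, 2 or 3. Ero1l, an oxidase of protein folding, and Ndrg1 had differences of -0.70 and -0.84; that of Ndrg1 was not called without hypoxia WT replicate 1, tumor KO replicate 3 or tumor WT replicate 2. The mitophagy receptor gene Bnip3l and the histone demethylase gene Kdm3a had -0.32 and -0.30. Hif1a itself had 665, 673 and 723 CPM in tumor WT and 776, 762 and 801 in tumor KO, and 247, 278, 240.3 and 249.5 in hypoxia WT against 245, 209, 201 and 182 in hypoxia KO. The tumor groups did not overlap and the hypoxia groups did. Its mRNA fell in hypoxia alone (-0.28; tumor 0.18, adjusted p = 0.25), so that its difference was 0.46, higher in the tumor (adjusted p = 0.018). Of its regulators, Vhl (-0.30) and Hif1an (-0.35) had differences called lower; leaving out hypoxia KO replicate 1 or 2, hypoxia WT replicate 1 or 3, tumor KO replicate 2 or 3, or tumor WT replicate 1 or 2 removed both calls, and leaving out hypoxia KO replicate 4, hypoxia WT replicate 4 or tumor KO replicate 1 removed one of them, as library size alone removed both.

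The core of the HIF element was searched in the form ACGTG, which also lies within the E-box CACGTG. No other form of the core was searched, so the shares below are for ACGTG alone. In RefSeq promoters of build GRCm38.p6 (250 bases before to 50 after the start, found for 9280 of the 12978 genes), this core stood on either strand in 26.3% of all tested genes, in 12 of 25 glycolysis promoters (48%) and in 12 of 17 promoters of other HIF targets (70.6%). Among the genes that turned sign it stood in 9 of 36 promoters (25%) of those higher in tumor KO and in 17 of 71 (23.9%) of those lower in tumor KO, shares near that of all genes. Of the glycolysis and HIF target members that turned sign, Slc2a3 and Mxi1 had no promoter in this set and were not searched. The remaining such members, Hk3 and Ddit4, both held the core. Their 250 bases before the start, both from the minus strand, are shown with the core in capitals, on chromosome 13 from 55021386 to 55021635 for Hk3 and on chromosome 10 from 59951771 to 59952020 for Ddit4; the core starts at -156 in Hk3 and at -187 in Ddit4, counted from the start, and reads CACGT in Hk3 because it lies on the other strand.
Hk3: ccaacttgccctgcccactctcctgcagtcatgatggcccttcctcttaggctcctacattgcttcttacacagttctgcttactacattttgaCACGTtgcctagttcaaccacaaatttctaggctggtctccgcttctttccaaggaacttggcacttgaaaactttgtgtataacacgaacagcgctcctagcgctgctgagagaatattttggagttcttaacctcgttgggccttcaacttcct
Ddit4: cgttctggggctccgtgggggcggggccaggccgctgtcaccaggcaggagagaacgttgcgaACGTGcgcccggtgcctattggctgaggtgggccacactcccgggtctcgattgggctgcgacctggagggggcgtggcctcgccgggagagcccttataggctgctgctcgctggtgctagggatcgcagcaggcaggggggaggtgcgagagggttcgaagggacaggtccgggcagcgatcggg
A match is a description of these letters and not a bound site.

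Nuclear genes of the respiratory chain went the other way. Of 76 tested, 18 had a difference called higher in the tumor and 0 lower, and 73 lay above 0; the median difference was 0.31. The called effects lay mostly in hypoxia, where 59 fell and 0 rose (median -0.33), against 2 falls and 0 rises in the tumor (median -0.01) and 5 falls and 0 rises in normoxia. Uqcr10, a subunit of complex III, had 25.6, 22.9, 25.5 and 23 CPM in hypoxia WT and 16.6, 17.1, 17.1 and 18.8 in hypoxia KO, and overlapping tumor groups at 52.9, 42 and 48.2 and 48.5, 54.7 and 52.2 (difference 0.60 ± 0.12, edgeR, adjusted p = 0.0036). Sdhb of complex II had 57.9, 51, 58.1 and 50.9 in hypoxia WT and 39.2, 40.2, 41.5 and 39.2 in hypoxia KO, with overlapping tumor groups (difference 0.43). Atp5g1 of the ATP synthase (0.65) and Ndufb6 of complex I (0.74) followed. The count of 18 became 9 without hypoxia KO replicate 2 or hypoxia WT replicate 1, 11 without hypoxia WT replicate 3 or tumor WT replicate 2, 7 without tumor KO replicate 2, 30 without hypoxia WT replicate 2 28 with library size alone and 3 in a test against a fold of 1.2.

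Enzymes of the citric acid cycle had 6 differences called higher and 0 lower of 24, beside 5.55% of all genes called higher. Among the 6 were Suclg2 (0.69), Idh2 (0.44) and Sdhc (0.41). Without tumor KO replicate 2 the count was 3 and Idh2 was not among them. A test against a fold of 1.2 left 1 of the 6. Transcripts of the mitochondrial genome had 0 called differences of 13, although all 13 lay above 0, with mt-Nd1 at 0.63 (edgeR, adjusted p = 0.19). None had an unadjusted p under 0.05, DESeq2 and limma called 0, and 1 was called without tumor WT replicate 3. Cytosolic ribosomal protein genes had 10 differences called higher and 0 lower of 76, and all 76 lay above 0 (median 0.31); 40 fell in hypoxia and 0 changed in the tumor. Rps2 had 2038, 1710, 1885 and 1832 CPM in hypoxia WT and 1311, 1360, 1368 and 1471 in KO, and 245, 247 and 237 in tumor WT and 235, 239 and 233 in tumor KO, where the groups overlapped. The count of 10 became 2 without hypoxia WT replicate 1, tumor KO replicate 3 or tumor WT replicate 2, 3 without hypoxia KO replicate 2 or 3 or tumor KO replicate 2, 4 without hypoxia WT replicate 3, and 20 without hypoxia WT replicate 2 or tumor WT replicate 1; library size alone gave 23, no filter on low counts 3 and a test against a fold of 1.2 gave 0.

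Amino acid and ATF4 genes were lower in hypoxia KO and mostly not in tumor KO. Of 28 tested, 8 had a difference called higher and 1 lower, with a median of 0.29; 17 fell and 0 rose in hypoxia, and 3 fell and 2 rose in the tumor. Ass1, the enzyme that rebuilds arginine from citrulline, had 108, 112, 114 and 131 CPM in hypoxia WT and 48.6, 47.4, 45 and 42.4 in hypoxia KO, and 169.7, 164 and 144 in tumor WT and 166, 158 and 159 in tumor KO. Hypoxia KO lay below all other groups, and the tumor groups overlapped (difference 1.36 ± 0.11, edgeR, adjusted p = 5.7e-07). Got1, an aspartate transaminase, turned sign: 60.4, 66.5 and 56.6 CPM in tumor WT, 92.1, 97.5 and 87.7 in tumor KO, 30.5, 28.3, 28.4 and 28.5 in hypoxia WT and 21.8, 21.4, 22.4 and 19.8 in hypoxia KO, without overlap in either experiment (difference 1.03, adjusted p = 6.3e-06). Slc7a11, the cystine importer, changed by 0.54 in the tumor and -0.46 in hypoxia, where KO replicate 3 lay within the WT range. Its tumor rise was not called without tumor KO replicate 3 or tumor WT replicate 2. The serine and one-carbon enzymes Phgdh (1.21), Shmt1 (1.12), Shmt2 (0.65) and Mthfd2 (0.51) and the glutamine importer Slc1a5 (0.46) made up the 8, of which 5 were called without tumor KO replicate 1. The one lower difference, of the stress gene Sesn2 (-0.55), was called without tumor KO replicate 1 or 2, tumor WT replicate 3, hypoxia KO replicate 4 or hypoxia WT replicate 2, and not without any other library.

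Both Got1 and Slc7a11 held the composite element TTGCATCA, a C/EBP and ATF4 half-site pair, in their promoters. It stood in 0.657% of the promoters of all tested genes and in 4 of 23 of the amino acid list (17.4%), which were Pycr1, Got1, Slc7a11 and Chac1. It also stood in 3 of 36 promoters (8.33%) of genes that turned sign upward in the tumor, Got1, Slc7a11 and Cdc42bpa, and in 0 of 71 of those that turned sign downward. The 250 bases before the start are shown from the minus strand with the element in capitals, on chromosome 3 from 50443614 to 50443863 for Slc7a11, where it starts at -66 (as its complement) and -47, and on chromosome 19 from 43524606 to 43524855 for Got1, where it starts at -102.
Slc7a11: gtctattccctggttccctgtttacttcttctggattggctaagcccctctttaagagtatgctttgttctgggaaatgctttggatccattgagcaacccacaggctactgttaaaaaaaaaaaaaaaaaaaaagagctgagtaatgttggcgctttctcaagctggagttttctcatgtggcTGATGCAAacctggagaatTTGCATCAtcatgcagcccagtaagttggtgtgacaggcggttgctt
Got1: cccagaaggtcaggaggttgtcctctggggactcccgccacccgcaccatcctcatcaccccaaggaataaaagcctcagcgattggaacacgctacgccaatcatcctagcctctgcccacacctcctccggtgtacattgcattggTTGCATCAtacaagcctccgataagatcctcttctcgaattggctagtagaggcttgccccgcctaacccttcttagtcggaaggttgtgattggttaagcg
Slc7a11 thus carried the element in both orientations, and Got1 in one.

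Arginine and polyamine genes had 4 called differences of 23 tested, 3 higher and 1 lower, beside 5.55% and 8.27% of all genes. Arg1, the arginase of suppressor cells, had 4882, 4898 and 4574 CPM in tumor WT and 3089, 3645 and 3302 in tumor KO, and 162, 169, 190.3 and 105 in hypoxia WT against 84.5, 44.8, 43 and 29.9 in hypoxia KO. No KO library reached a WT library in either experiment. The fall was called in hypoxia (-1.63 ± 0.26) and not in the tumor (-0.52 ± 0.28, edgeR, adjusted p = 0.31), where a fit of the tumor alone gave -0.51 and an adjusted p of 0.0021. The difference of 1.11 had an interval of 0.30 to 1.93 and was not called (adjusted p = 0.067), but was called without hypoxia KO replicate 1 or hypoxia WT replicate 4 and with library size alone. Odc1, ornithine decarboxylase, had 121, 87.4, 128 and 109.5 CPM in hypoxia WT and 65.6, 69.5, 53.4 and 71.4 in KO, with overlapping tumor groups at 75.5, 73.9 and 83.5 and 67.1, 78.7 and 71. Its difference was 0.68 ± 0.17 (adjusted p = 0.012). Of the 4 differences, 3 were called higher (Odc1, the translation factor gene Eif5a at 0.48 and the salvage enzyme Mtap at 0.72) and 1 lower (the antizyme gene Oaz2, -0.43). The calls of Eif5a and Mtap were marginal (edgeR, adjusted p = 0.038 and 0.049): Eif5a kept its call only without hypoxia KO replicate 4, hypoxia WT replicate 2 or tumor KO replicate 3, and Mtap only without hypoxia KO replicate 4, hypoxia WT replicate 2 or tumor KO replicate 1. The count of 3 became 1 without hypoxia KO replicate 2, hypoxia WT replicate 1, tumor KO replicate 2 or tumor WT replicate 1 or 2. A test against a fold of 1.2 left 0 higher and 0 lower.

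IL-6 and STAT3 genes differed in both directions, 5 higher and 6 lower of 33 tested, beside 5.55% and 8.27% of all genes. Stat3 itself had a difference of -0.07, with an interval of -0.31 to 0.18. Socs3, the feedback inhibitor of this signal, had 642, 668 and 688 CPM in tumor WT and 1006, 1023 and 1035 in tumor KO, and 87.7, 97, 112 and 97.5 in hypoxia WT against 68.4, 76.5, 98.6 and 67.2 in hypoxia KO. Every KO tumor exceeded every WT tumor, while in hypoxia KO replicate 3 lay within the WT range. Socs3 turned sign (0.62 ± 0.12 and -0.34 ± 0.10, difference 0.96 ± 0.16, edgeR, adjusted p = 0.00061), although its hypoxia fall was not called without hypoxia KO replicate 1 or WT replicate 3; in normoxia it went with the tumor (0.43). Socs1 fell in hypoxia alone (-0.52; tumor 0.14), as did the adhesion gene Icam1 (-0.39; tumor 0.18), and the NF-κB cofactor gene Bcl3 rose in the tumor alone (0.42; hypoxia -0.09). Lower differences included those of the phosphatase gene Ptpn11 (-0.57), the STAT3 inhibitor gene Pias3 (-0.60), Jak1 (-0.41), Cebpd (-0.53) and Myc (-0.60). Without tumor KO replicate 3, 8 were called higher. A test against a fold of 1.2 left 2 higher and 1 lower.

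Among suppressive myeloid genes, 1 difference was called higher and 4 lower of 28, beside 5.55% and 8.27% of all genes. The higher one was Il1b, with 782, 752 and 1050 CPM in tumor WT and 1082, 1131 and 1522 in tumor KO, and 267, 281, 247 and 292 in hypoxia WT against 208, 175, 179.7 and 105 in hypoxia KO. It fell in hypoxia (-0.70), and its tumor value of 0.53 was not called (edgeR, adjusted p = 0.13; difference 1.23 ± 0.27). The lower ones were Nt5e, the adhesion receptor gene Cd84 (-0.72) and the NADPH oxidase genes Ncf1 (-0.57) and Cybb (-0.36). Nos2, the inducible nitric oxide synthase, had 0.41 with an interval of -0.09 to 0.92 and was called without hypoxia WT replicate 3, and Cd274, the gene for PD-L1, had 0.37 (0.07 to 0.67). The alarmin genes S100a8 and S100a9 had -0.11 and -0.16, with few counts in the tumor. Without hypoxia KO replicate 1 or hypoxia WT replicate 3 or 4, 2 were called higher.

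Cytokines and chemokines had 6 differences called higher and 2 lower of 26, beside 5.55% and 8.27% of all genes. Cxcl1, a neutrophil attractant, turned sign at low levels: 1.28, 1.2 and 0.335 CPM in tumor WT, 2.79, 2.71 and 1.89 in tumor KO, 9.4, 6.56, 9.25 and 7.59 in hypoxia WT and 3.09, 4.26, 2.53 and 2.28 in hypoxia KO (difference 2.81 ± 0.43, edgeR, adjusted p = 0.00038). Its tumor rise was not called without tumor KO replicate 1 or 2 or tumor WT replicate 3. Il1a fell from 11.5, 9.03, 17 and 12.4 CPM to 4.23, 5.35, 3.48 and 2.75 in hypoxia and had overlapping tumor groups (difference 1.84). Il1b, Ccl9 (0.62), Ccl5 (1.06) and Tnf (0.76) were the other higher ones, and Ccl7 (-1.16) and Il27 (-0.76) the lower ones. The lower calls were unstable: 0 were left without hypoxia KO replicate 2, hypoxia WT replicate 2, tumor KO replicate 3 or tumor WT replicate 1, and 1 without hypoxia KO replicate 1 or 3, hypoxia WT replicate 3 or 4, tumor KO replicate 1 or 2 or tumor WT replicate 2. Immediate early genes had 5 higher (Btg2, Nr4a1, Klf4, Ier5 and Klf2) and 1 lower (Myc) of 23; Btg2 rose in both experiments, from 369, 347 and 359.5 to 823, 774 and 778 CPM in the tumor and from 164, 195, 157 and 175 to 259.6, 235, 231 and 223 in hypoxia (difference 0.69), and Nr4a1 fell in hypoxia alone (-0.45). The 5 became 3 without hypoxia WT replicate 3, tumor KO replicate 1 or 2 or tumor WT replicate 2 and 2 without tumor WT replicate 1, and the difference of Myc was not called without hypoxia KO replicate 1 or 2, tumor KO replicate 2 or 3 or tumor WT replicate 1 or 2; 3 were lower without hypoxia WT replicate 4.

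Antigen presentation genes of class II had a positive difference in all 13 members tested (median 0.73), of which 3 were called. H2-Ab1 had 3055, 3420 and 4098 CPM in tumor WT and 5182, 5887 and 7212 in tumor KO, and 138, 178, 123 and 148 in hypoxia WT against 146, 119.7, 130.0 and 62.2 in hypoxia KO. Tumor groups did not overlap and hypoxia groups did, and neither own effect was called (0.79 and -0.35), unlike the difference of 1.14 ± 0.32 (edgeR, adjusted p = 0.027). The tumor rise was called without hypoxia KO replicate 4, and with the tumor fitted alone for H2-Ab1 (adjusted p = 0.012), H2-Eb1 (0.024) and Ciita (0.00097). H2-Eb1 had a difference of 1.18, and H2-Oa, which restrains peptide loading, one of 1.34 from low tumor levels of 1, 1.67 and 1.52 CPM in WT and 3.33, 3 and 4.66 in KO. The count of 3 became 1 without hypoxia WT replicate 2, tumor KO replicate 3 or tumor WT replicate 1 or 2, and H2-Eb1 was also lost without hypoxia KO replicate 2, hypoxia WT replicate 4 or tumor KO replicate 2. Ciita, the master activator of class II genes, had 0.82 (0.14 to 1.5), not called. In normoxia, 7 of the 13 rose in KO and 0 fell, with H2-Ab1 at 2.07. Class I and peptide loading genes had 3 higher and 0 lower of 20, all of the immunoproteasome or its activator (Psmb10 0.49, Psme2 0.46, Psmb8 0.34); the count became 1 without hypoxia WT replicate 1 or 3, tumor KO replicate 2 or tumor WT replicate 2, 5 without hypoxia KO replicate 1 and 0 in a test against a fold of 1.2.

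Dendritic cell genes had 4 higher and 1 lower of 15. Flt3, the growth factor receptor of dendritic cell precursors, rose from 1.11, 1.07 and 1.71 to 4.27, 3.19 and 3.14 CPM in the tumor and had overlapping hypoxia groups (difference 1.97); the rise was not called without tumor KO replicate 1 or tumor WT replicate 2. The transcription factor gene Batf3 and the integrin gene Itgax fell in hypoxia alone (-1.20 and -0.85, differences 1.43 and 0.98). The peptidase gene Dpp4 had a difference of 1.01. Cd24a turned sign, from 30.2, 32 and 29.7 CPM in tumor WT to 15.8, 15.8 and 15.1 in tumor KO and from 518, 512, 507 and 496 in hypoxia WT to 890.1, 853, 790.0 and 775 in hypoxia KO (difference -1.68 ± 0.10, edgeR, adjusted p = 4.3e-09). It is also a gene of immature neutrophils. Without hypoxia KO replicate 4, 2 were lower. Of 30 interferon-stimulated genes, 11 rose and 1 fell in hypoxia KO, and 0 were called in the tumor. Of their differences, 3 were called lower and 1 higher (Bst2, 0.55), beside 8.27% and 5.55% of all genes. Cmpk2 had 6.89, 5.03, 6.77 and 6.42 CPM in hypoxia WT and 18.9, 23.5, 17.4 and 19.2 in hypoxia KO, and 372, 402 and 231 in tumor WT and 350.3, 346 and 197 in tumor KO, where the groups overlapped at far higher levels (difference -1.82). Oas3 had a difference of -0.93; 5 were lower without tumor WT replicate 3 or with DESeq2, and 2 higher without hypoxia WT replicate 2.

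Neutrophil granule and receptor genes rose in hypoxia KO, and 0 had a called rise in tumor KO, where some had few counts. Of 19 tested, 11 had a difference called lower and 0 higher, with a median of -0.61, and 11 of the 30 members were not tested. With a stricter filter on low counts, 5 were called lower. In hypoxia 15 rose and 0 fell, in normoxia 11 rose and 0 fell, and in the tumor 1 fell. Anxa1, an annexin that restrains inflammation, had 643, 535, 577 and 577 CPM in hypoxia WT and 964, 1047, 1078 and 1060 in hypoxia KO, and 493, 458 and 402 in tumor WT against 425, 408 and 332 in tumor KO, where the groups overlapped (difference -1.05 ± 0.13, edgeR, adjusted p = 6.3e-05). Cebpe, the transcription factor of granule genes, turned sign, from 79.6, 55.2, 77.6 and 79.6 to 142, 165, 118 and 139 CPM in hypoxia and from 3.98, 3.73 and 3.83 to 2.11, 1.74 and 1.52 in the tumor (difference -2.04). Lcn2 had 3152, 2280, 2526 and 2635 CPM in hypoxia WT and 5150, 5396, 4151 and 4691 in hypoxia KO, but 3.16 to 3.46 and 1.8 to 2.98 in the tumor. The summed level of the list was 37970 to 46880 CPM in hypoxia WT and 66900 to 79990 in hypoxia KO; in the tumor it was 10640 to 16110 and 16600 to 21440, of which Lyz2, a gene macrophages share, made 9190 to 14600 and 15100 to 19800. Ngp, a granule gene, had 10000 to 32500 CPM in hypoxia and at most 0.0866 in the tumor. The part of cell content in these differences was not tested.

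Some marker lists of other cell types moved with genotype in opposite directions in the experiments. T and NK cell markers summed to 62.9 to 128 CPM in tumor WT, highest in replicate 3, and 30 to 40.2 in tumor KO, but to 23.6 to 29.5 in hypoxia WT and 38 to 45.1 in hypoxia KO. Of the 20 members, 16 had under 1 CPM in hypoxia, so the hypoxia sum rested on few genes. All 5 members tested had lower differences (15 were not tested): Cd28 -2.23, Nkg7 -2.13, Cd3d -2.80, Gzmb -1.54 and Lck -1.61. The tumor fall itself was called for 3 of the 5. The hypoxia rise was called for 2 of the 5, Nkg7 and Cd3d, and not for Cd28 or Gzmb. With the tumor fitted alone, Nkg7 and Cd3d were not called (edgeR, adjusted p = 0.11 and 0.19). Of the 15 members, Ncr1 (1.55), Gzma (0.77), Klrb1c (0.14) and Prf1 (0.02) lay above 0 in that fit, none called. The others lay below 0, such as Cd3e (-1.70, adjusted p = 0.018). Gzmb, the killer cell protease, had 20.2, 20.6 and 37.4 CPM in tumor WT and 8.86, 10.7 and 10 in tumor KO, and 2.32 to 5.37 and 3.21 to 4.2 in the overlapping hypoxia groups (edgeR, adjusted p = 0.011). Eosinophil genes summed to 1146 to 1860 CPM in hypoxia WT and 2233 to 3929 in KO and to 5.07 to 18.7 in the tumor, where Prg3, Epx and Ear6 were at 0 or not listed; 3 of 4 tested were called lower, with Ccr3 at -3.78. Erythroid genes summed to 34.8 to 121 CPM in hypoxia WT and 9.24 to 16.9 in hypoxia KO, and to 75.4 to 127 in tumor WT and 163 to 186 in tumor KO. Of the 11 members, 6 had under 1 CPM in hypoxia, and only 4, all globins, were tested. With hypoxia fitted alone, Klf1 (0.32) and Epor (0.66) lay above 0, against the globins, and were not called (edgeR, adjusted p = 0.40 and 0.093). All 4 globin genes tested had higher differences; Hba-a1 had 11.2, 18, 33.1 and 36.8 CPM in hypoxia WT and 2.78, 4.84, 5.6 and 3.22 in KO, and 31.4, 28.4 and 41.2 in tumor WT and 52.6, 55.5 and 56.6 in tumor KO (difference 3.30 ± 0.49). The alpha and the beta globin copies are near-identical pairs, so their counts may be split uncertainly. With a stricter filter on low counts, 0 T and NK cell, 0 eosinophil and 1 erythroid difference were called. The part of these cells in other results was not tested.

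**Figure D5:**
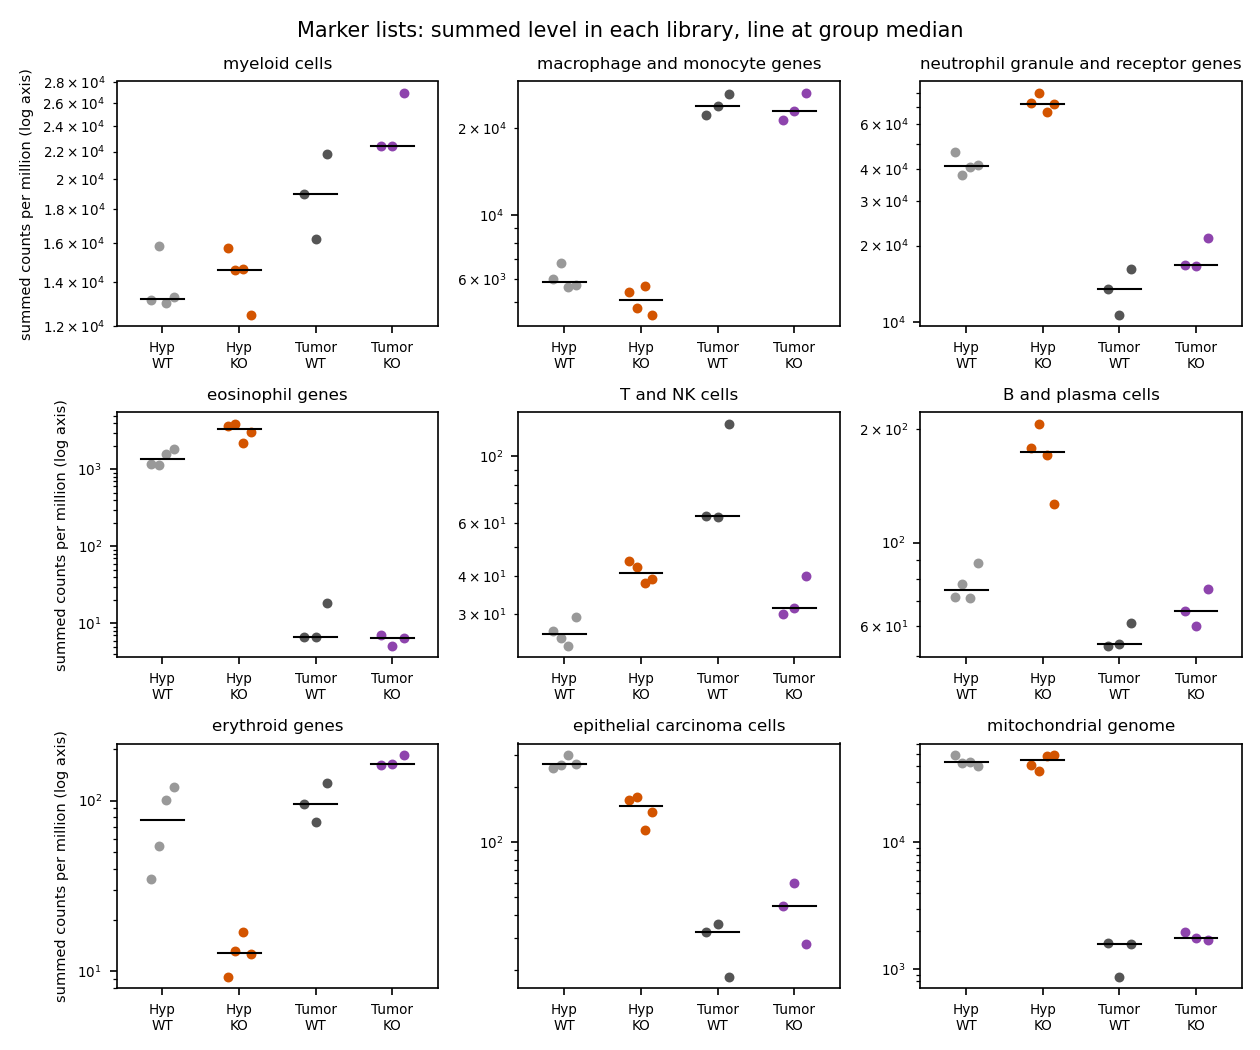
Summed level in CPM of all counts (log axis, its own range in each panel) of marker lists in each library of hypoxia WT, hypoxia KO, tumor WT and tumor KO; points are libraries and lines group medians. T and NK cell markers are lower in tumor KO than in tumor WT and higher in hypoxia KO than in hypoxia WT, and the erythroid list shows the reverse. In hypoxia, 16 of the 20 T and NK members and 6 of the 11 erythroid members had under 1 CPM.

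The counts that follow stand beside 5.55% of all genes with a difference called higher and 8.27% lower. The macrophage, lysosome and sterol counts were near or below these shares. Markers of the myeloid lineage gave 1 higher and 1 lower difference of 10. Itgam, the gene for CD11b, turned sign, with 364, 353 and 358 CPM in tumor WT and 256, 264 and 283 in tumor KO, and 466, 499, 466 and 456 in hypoxia WT against 634, 579, 591 and 565 in hypoxia KO (difference -0.75 ± 0.09, edgeR, adjusted p = 4.5e-05), and Fcer1g had 0.39; 2 were lower without hypoxia WT replicate 2. Ptprc had -0.24, not called (adjusted p = 0.14). Macrophage and monocyte genes had 1 higher (Msr1, 0.62) and 2 lower (Fcgr4, -0.80, and Maf, -0.86) of 23; the lower count ran from 1 (without hypoxia WT replicate 1 or 3, tumor KO replicate 1 or 3 or tumor WT replicate 2) to 4 without hypoxia WT replicate 2, 5 with DESeq2 and 6 without hypoxia KO replicate 4, 2 were higher without hypoxia KO replicate 3, and the call of Msr1 was lost without any tumor library except KO replicate 1 and without hypoxia KO replicate 2 or hypoxia WT replicate 1, 2 or 3. Lysosome and cathepsin genes had Ctsz higher (0.57) and Ctse lower of 25, and 2 higher without tumor WT replicate 3. Of the sterol and fatty acid list, the reductase gene Dhcr7 (-0.88) and the desaturase gene Scd2 (-0.54) were lower, of 27. Sterol genes had 1 higher without tumor KO replicate 3. Endoplasmic reticulum chaperones had 0 called of 20 by edgeR (2 with an unadjusted p under 0.05, and 1 called without hypoxia WT replicate 2), and endothelial markers 0 of 4 (1 with an unadjusted p under 0.05). Mast cell and basophil genes had 0 called of 4, none with an unadjusted p under 0.05, and all 4 rose in hypoxia. DESeq2 and limma called 0 in these 3 lists. The 14 fibroblast markers summed to 441 to 514 CPM of all counts in tumor WT and 546 to 701 in tumor KO, without overlap. The part of fibroblasts in other results was not tested. With the tumor fitted alone, Pdgfra rose by 0.59 (edgeR, adjusted p = 0.048), and Col3a1 (0.34) and Postn (0.87) were not called. Fibroblast markers had Fbn1 at 0.99 and Acta2 at -0.96, of 6 tested; the call of Acta2 was lost without tumor KO replicate 1 or 2 or tumor WT replicate 1 or 3, and that of Fbn1 without any hypoxia library except KO replicate 1 and WT replicate 4, without tumor KO replicate 1 or 3, or without tumor WT replicate 3. Igkc, an immunoglobulin gene, had 2.94, 3.62, 3.02 and 4.32 CPM in hypoxia WT, 33.1, 46.7, 32.6 and 16 in KO and 1 to 2.56 in tumor WT and 0 to 2.13 in tumor KO (difference -3.57), the 1 lower of 3 B cell genes; 2 were lower without hypoxia KO replicate 4 or tumor KO replicate 3.

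Large differences were also counted by chromosome (GRCm38). Of the 12978 genes, 200 (1.54%) had a called difference of at least 1.5 on the log2 scale, and of the 781 on chromosome 1, 25 (3.2%) did. A stretch from Ctse to Glul, chromosome 1 from 131638306 to 153909723, held 107 tested genes. Of these, 32 were called, beside 1793 of all 12978 genes. Such large differences were found for 10, among them Ctse, Chil1, Npl and Glul, as well as Prelp, Mybph, Ppfia4 and Ptprv. Ctse, Chil1 and Npl fell in the tumor and Glul rose there. The stretch, whose end genes were themselves among those with large differences, was chosen after the values were seen and was not tested. Of the 7 tested genes on chromosome Y, 5 (71.4%) had such large differences, which were Mid1-ps1 (-2.39) and 4 genes with clone names, all lower in the tumor than in hypoxia. The male genes Ddx3y, Uty, Kdm5d and Eif2s3y were not among the genes tested. Xist, the RNA that silences an X chromosome in females, had 25 to 48.3 CPM in tumor WT and 44.2 to 58.1 in tumor KO, and 317 to 446 in hypoxia WT and 360.4 to 424 in hypoxia KO, with overlap in both experiments and a difference of 0.31 that was not called (edgeR, adjusted p = 0.46).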

How the data were processed

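Per the labels' protocols, RNA came from RNeasy columns and went into SMART-Seq libraries (Takara). The raw counts per gene are deposited tables, made by the authors with Subread featureCounts on GRCm38.p6, per the submitters' processing notes; versions and the strand setting are not given in the sources used here, so antisense genes cannot be told apart. The deposited normalized signal is these counts divided by 1 DESeq2 factor per library, and served only as an alternative scaling.

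The difference was fitted with edgeR 4.0.16 (R 4.3.3) over 14 libraries: genes passing filterByExpr in each experiment, TMM scaling, a robust quasi-likelihood fit, and Benjamini-Hochberg adjustment over 12978 genes with a threshold of 0.05. Levels are CPM on TMM-scaled library sizes unless given as of all counts. Normoxia was fitted alone. DESeq2 1.42.0 and limma 3.58.1 served as alternatives, and the fit was tested on simulated data. Symbols and coordinates come from GENCODE M21 (GRCm38). Named genes were the largest per class without overlap of genotypes, up to 4 of smallest p per list, and 16 chosen by role; predicted and clone names were passed over, and called list members beyond these were named after their values were seen. The genes, lists and tests were chosen with earlier results of these data known. Replicates differed beyond sampling noise. Depth was 19119985 to 31716200 counts in tumor and hypoxia and 23409142 to 23722932 in normoxia. Alternatives were other scalings, filters and tools, a fold threshold, a replicate block and leaving out each library. One called list member is not reported here.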

Additional observations from a re-analysis of the deposited data

Results flagged for a closer look

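The tumor and hypoxia effects had opposite called signs, with a called difference between them, for the 16 genes named first among those that turned sign. Other list members named above also turned sign. The differences were 1.82 for Gpr137b, 1.67 for Ralgds, 1.55 for Cd302, 1.5 for Tigar, 1.48 for Thop1, 1.35 for Hivep3, 1.34 for P2ry14 and 1.29 for Saa3. In the other direction they were -8.81 for Chil1, -4.34 for Npl, -3.68 for Ctse, -3.59 for Pttg1, -2.21 for Slc2a3, -2.20 for Ets1, -2.20 for Mapk7 and -1.72 for Itga6. The 124 called differences among 178 named genes are those the report describes.

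Of 356 groups of 4 libraries of the named genes, 18 had 1 library far from the others by Dixon's criterion, and chance alone does so in about 1 of 20. In hypoxia WT replicate 2 these were Gpr137b (69.5 CPM), Jak1 (266), Nlrc5 (13.4), Col1a2 (1.02), Cebpe (55.2) and Hsd17b7 (45.7). Other hypoxia WT libraries that stood apart were replicate 1 for Got1 (30.5) and Pecam1 (104), replicate 3 for Cdh1 (293) and Batf3 (2.67), and replicate 4 for Mid1 (6.16) and Msr1 (56.7). In hypoxia KO they were replicate 4 for Vsir (116) and Scd2 (982), replicate 2 for Dnaaf5 (14.8), replicate 3 for Pdia6 (119) and replicate 1 for Cdh5 (0.412) and Lgals4 (6.77).

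Genes with enough reads in one experiment alone fell outside the difference. In hypoxia, 2040 such genes held 3.66% of counts, and 637 had a called effect, 546 higher and 91 lower in KO. In the tumor, 1392 such genes held 0.749% of counts, and 81 had a called effect, 48 higher and 33 lower.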

How the results depend on the processing

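Of the 124 named genes with a called difference, 21 lost the call when 1 library was left out, 37 under at least 1 alternative, and 0 changed direction. With a test against a fold of 1.2, 725 genes had a called difference, 1480 an effect in hypoxia and 325 in the tumor, and 30 turned sign (7 and 23). With a stricter filter on low counts, 606 were called in the tumor (289 lower) and 95 turned sign (54 lower in tumor KO). Leaving out 1 library gave 1309 to 2121 called differences, 3370 to 4731 hypoxia effects, 553 to 1085 tumor effects and 79 to 154 genes that turned sign. Of those, 16 to 57 were called in normoxia with the sign of hypoxia and 0 to 2 with that of the tumor. DESeq2 called 2223 differences, 1785 of them shared, and limma 1618.

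Same-numbered deviations correlated between -0.223 and 0.021 in hypoxia, 0.0722 and 0.253 in the tumor and -0.0571 and 0.372 in normoxia. In hypoxia 0 of 8 samples correlated best with their own number, so replicate numbers did not pair these samples. In the tumor 6 of 6 samples did, so a pairing or shared batch of tumor samples is possible. The main fit used no pairing. With a replicate block, 1551 differences were called, 1425 of them shared, and 123 genes turned sign, 100 of them shared. The block moved list counts of higher differences to 6 from 3 for class I genes, to 2 from 1 for suppressive, macrophage and lysosome genes and to 0 from 1 for fibroblasts, and of lower differences to 9 from 3 for interferon-stimulated genes, to 5 from 2 for macrophage genes and to 0 from 2 for HIF regulators. Under it the differences of Arg1, Nlrc5, Ctsk and C1qc were called and those of Eif5a, Mtap, Vhl, Hif1an and Fbn1 were not. Depth limits genes near 1 CPM in the tumor, such as Ccr3 and S100a9.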
